A study of Mus musculus with 6 samples.

Results

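The 10 genes described here encode proteins of the muscle Z-disc and the stretch-responsive ankyrin repeat proteins tied to it: the myozenins Myoz1, Myoz2 and Myoz3, the muscle alpha-actinins Actn2 and Actn3, myotilin (Myot), the muscle LIM protein Csrp3, telethonin (Tcap), and Ankrd1 and Ankrd2. They were taken by gene name, and all 10 were found once each among the 43346 genes of the count table. RNA of the gastrocnemius, a calf muscle of mixed and mainly fast fibres, was sequenced from 6 male mice aged 6 months, 1 library per mouse. The VDR_KO group was 3 mice injected with tamoxifen for 5 days, at 100 mg/kg, and the VEH_CONT group was 3 mice injected with the corn oil and 10% ethanol vehicle. All 6 mice carried Vdr alleles with loxP sites around exon 3 and the Tg(ACTA1-cre/Esr1*)2Kesr transgene, in which a human skeletal actin promoter drives a Cre recombinase that tamoxifen activates. Tamoxifen, active Cre and loss of Vdr came together in the knockout libraries and cannot be told apart, since tamoxifen-treated mice without Cre were not analysed here. All 6 mice ate a diet with vitamin D3 at 3.4 IU/g and 0.81% calcium. Muscle was taken after glucose and strength tests, which came 10 days after the last injection.

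The Z-disc is the border between neighbouring sarcomeres, where alpha-actinin cross-links the actin filaments and anchors titin. Myozenins, myotilin, Csrp3 and telethonin bind alpha-actinin or titin there, and the myozenins also bind the phosphatase calcineurin. Ankrd1 and Ankrd2 bind titin in the I-band and can move to the nucleus, and both are known to be induced when muscle is stretched or loaded. In mouse muscle Myoz2 and Ankrd2 are known as genes of slow fibres, whereas Actn3, Myoz1 and Myoz3 are known as genes of fast fibres.

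Library totals ran from 30486874 to 37722849 counted reads in knockout and from 33531876 to 39909535 in vehicle libraries. Vdr itself had 52, 27 and 40 reads in the knockout libraries and 46, 48 and 61 in the vehicle libraries, which makes -0.37 on the log2 scale (SE 0.37), so that counts of the whole gene, of which exon 3 is a small piece, check the labels only in part. The skeletal muscle genes Acta1, Ckm, Mb and Ryr1 together made up 45179 to 52286 CPM (read counts scaled to library size) in knockout and 43992 to 52733 CPM in vehicle libraries. Of 5 genes listed for heart muscle, in which Csrp3 and Ankrd1 are also abundant, the atrial peptide Nppa was at 0 in all libraries, Myl7 was too low to test, and Tnni3 and Ryr2 averaged 0.343 and 0.333 CPM in knockout and 0.270 and 0.205 CPM in vehicle libraries. The fifth, the myosin Myh6, averaged 322 CPM in knockout and 88.8 CPM in vehicle libraries. Knockout replicate 2 stood apart from the other 5 libraries: its 10 most abundant genes took 15.1% of its reads, against 20.8% to 25.2% elsewhere.

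Promoters of Actn2, Csrp3 and Ankrd2, whose library patterns were alike, and sites in the promoter of Ankrd1, which differed from them, are shown first for orientation. Promoters before RefSeq starts in GRCm38.p6, the assembly behind mm10, were searched for 5 of the 10 genes, namely Myoz2, Actn2, Csrp3, Ankrd1 and Ankrd2. Those of the other members were not in the set searched, which does not show that RefSeq lacks them. The 250 bases before each start were searched on both strands for motifs that included the E-box CANNTG, which myogenic factors can bind, the MCAT element CATTCC, which TEAD factors can bind, the TATA box TATAAA, and the CArG box by name. E-boxes were in all 5 promoters, and in 66.2% of all 32851 promoters of that length in the set searched. The E-boxes are in capitals in the runs before Actn2 (chr13:12340761-12340982, minus strand), Csrp3 (chr7:48848052-48848301, minus strand) and Ankrd2 (chr19:42035777-42035999, plus strand). The Csrp3 run is the whole window, and the Actn2 and Ankrd2 runs stop where GENCODE M21 places the gene start. Csrp3 had a second RefSeq start, 4380 bases from the start in the deposited table, whose window also held E-boxes and is not shown.
Actn2: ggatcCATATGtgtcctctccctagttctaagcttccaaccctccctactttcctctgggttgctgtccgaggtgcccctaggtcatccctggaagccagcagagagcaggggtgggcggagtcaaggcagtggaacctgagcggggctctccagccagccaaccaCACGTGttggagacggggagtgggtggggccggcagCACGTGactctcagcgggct
Csrp3: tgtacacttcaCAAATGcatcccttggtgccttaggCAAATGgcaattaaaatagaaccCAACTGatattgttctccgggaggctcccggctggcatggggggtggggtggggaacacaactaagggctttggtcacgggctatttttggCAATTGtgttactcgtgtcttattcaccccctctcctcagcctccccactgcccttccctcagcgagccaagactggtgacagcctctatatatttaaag
Ankrd2: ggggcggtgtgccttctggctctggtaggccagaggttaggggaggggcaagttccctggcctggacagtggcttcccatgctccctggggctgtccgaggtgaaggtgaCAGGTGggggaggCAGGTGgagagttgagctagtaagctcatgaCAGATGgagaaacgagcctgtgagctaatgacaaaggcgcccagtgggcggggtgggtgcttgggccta

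MCAT elements were found in 1 of the 5, that of Ankrd1, which held 2 of them, read as GGAATG on the strand of the gene, whereas 12.6% of all promoters held at least 1 and 1.02% held 2 or more. The TATA box was in the Ankrd2 promoter only among the 5, and in 12.4% of all promoters, and the CArG box was in none of the 5 and in 1.47% of all. GENCODE M21 places the start of Ankrd1 farther upstream, at chr19:36120099, so in that annotation both elements lie inside the gene. The 30-base stretches around the upstream and downstream Ankrd1 elements (chr19:36120037-36120066 and chr19:36119950-36119979, minus strand) follow, with the motif in capitals.
Ankrd1 upstream MCAT: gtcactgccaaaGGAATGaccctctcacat
Ankrd1 downstream MCAT: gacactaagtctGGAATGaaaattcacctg

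These are matches of letters, and binding was not measured.

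All 10 genes had enough reads to be tested, with counts from 126 for Ankrd1 in knockout replicate 1 to 311231 for Actn3 in vehicle replicate 3. Together they took between 1.59% and 1.74% of all reads in each library. Per length, in the deposited FPKM (reads scaled by gene length and library total), the order by mean over the 6 libraries was Tcap, Myoz1, Actn3, Myot, Actn2, Csrp3, Ankrd2, Myoz2, Myoz3 and Ankrd1. Tcap averaged 3684 ± 746 FPKM in knockout and 3031 ± 562 FPKM in vehicle libraries (n = 3 each, ± SD), and it ranked 15 by FPKM among the 15583 genes tested. Myoz1 at 1796 ± 570 FPKM in knockout and 2461 ± 403 FPKM in vehicle libraries, and Actn3 at 1668 ± 918 and 2560 ± 351 FPKM in the same order, overlapped in their levels (n = 3 each, ± SD). Myot stood at 902 ± 236 FPKM in knockout and 724 ± 73.8 FPKM in vehicle libraries. Actn2, Csrp3 and Ankrd2 were neighbours whose ranges over libraries overlapped. Their knockout means were 500 ± 238, 482 ± 399 and 402 ± 281 FPKM, in that order. Their vehicle means were 264 ± 242, 199 ± 127 and 180 ± 190 FPKM. Within every library Actn2 lay above Ankrd2, whereas the order of Csrp3 against either of them varied by library. Myoz2 followed at 231 ± 197 FPKM in knockout and 59.3 ± 51.4 FPKM in vehicle libraries, and Myoz3 at 48.2 ± 21.1 FPKM in knockout and 43.7 ± 16.1 FPKM in vehicle libraries. The levels of these genes overlapped in vehicle libraries, whereas in knockout libraries all Myoz2 values, from 93.6 FPKM, lay above all Myoz3 values, up to 62.1 FPKM. Ankrd1 was the lowest, at 7.32 ± 6.15 FPKM in knockout and 16.2 ± 10.0 FPKM in vehicle libraries, and ranked 3347. The level of Myoz3 rests on a listed length of 870 bases, whereas its exons span 3436 bases in GENCODE M21, and those of Csrp3 and Ankrd1 on 973 and 1765 bases, against 2671 and 2886. The level of Myoz2 rests on 3399 bases, whereas its main GENCODE M21 transcript has 1181. By mean CPM, Myoz2 at 466 stood above Csrp3 at 319 and Ankrd2 at 310.

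**Figure D1:**
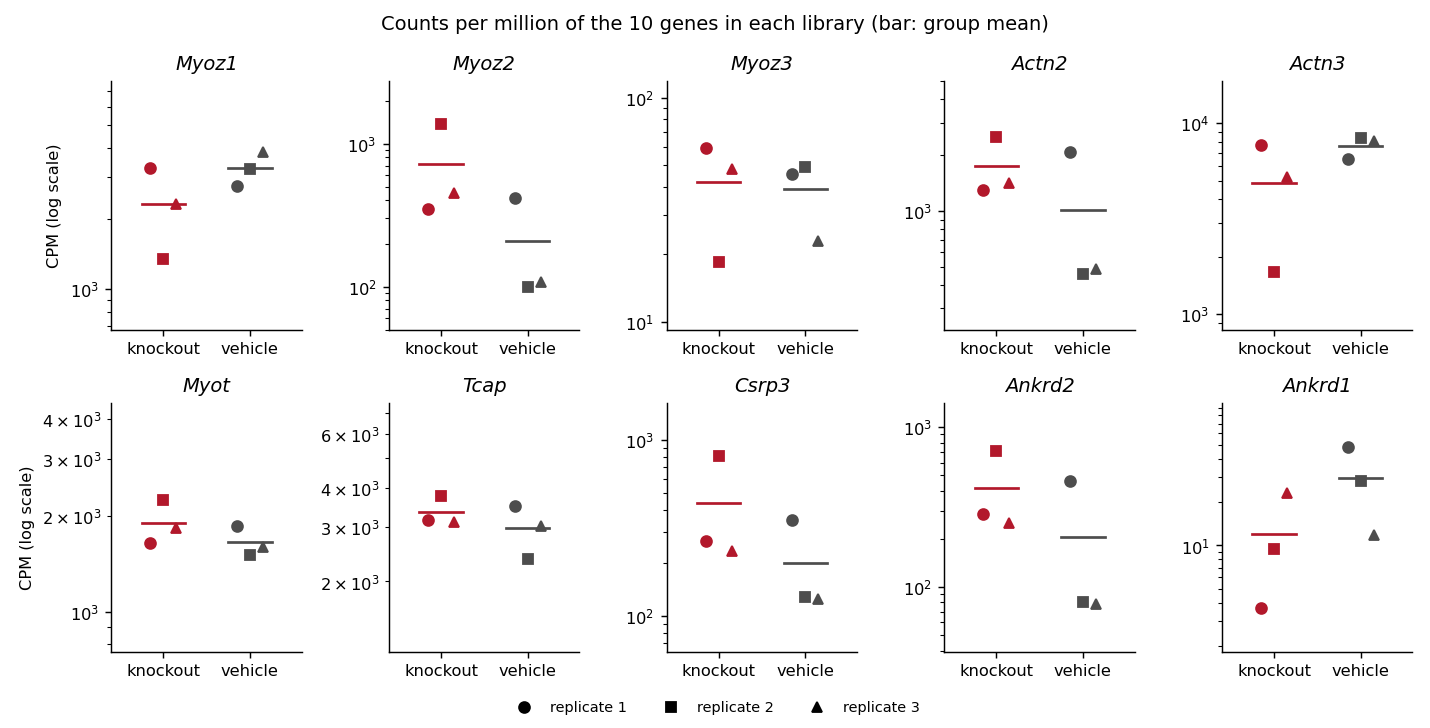
CPM of each of the 10 genes in knockout (red, left) and vehicle (grey, right) libraries on log axes; each point is 1 library, marker shapes are replicate numbers and bars are group means. The groups overlap for every gene, and the knockout point farthest from its group is replicate 2 for Myoz2, at 1369 CPM, and for Actn3, at 1660 CPM.

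The comparison of knockout with vehicle libraries asks which transcripts differ between tamoxifen-injected and vehicle-injected mice of this line. For the Z-disc genes no difference passed the test. With edgeR's quasi-likelihood test and Benjamini-Hochberg adjustment over all genes, 0 of the 10 members had an adjusted p below 0.05, as had 0 of all 15583 genes (0%). At an unadjusted p below 0.05 there was 1 of the 10, Myoz2, against 1159 of all genes (7.44%), 626 higher (4.02%) and 533 lower (3.42%). DESeq2 called 109 of all genes (0.700%) and 0 of the 10. The CPM ranges of the groups overlapped for all 10 members, whereas they did not in 12.3% of all genes, with knockout above vehicle in 5.83% and below it in 6.48%. Of the 10 estimates 7 were higher and 3 lower in knockout. Their median was 0.19 on the log2 scale, beside 0.0211 over all genes tested.

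Myoz2, the myozenin of slow fibres and heart, had the largest difference and the smallest p of the 10. It had 349, 1369 and 454 CPM in knockout libraries, against 419, 99.9 and 108 CPM in vehicle libraries. Knockout replicate 2 was far above all others, vehicle replicates 2 and 3 were the lowest, and vehicle replicate 1 lay between knockout replicates 1 and 3. The log2 fold change of knockout over vehicle was 1.79 (SE 0.70, 95% interval 0.18 to 3.41; unadjusted p = 0.0338, edgeR adjusted p = 0.645). The unadjusted p of Myoz2 was below 0.05 in 7 of 10 other settings and in 3 of 6 fits that left out a library. In the DESeq2 Wald test it was 0.0637.

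Actn2, the alpha-actinin of all sarcomeric muscle, had 1304, 2510 and 1412 CPM in knockout and 2087, 460 and 489 CPM in vehicle libraries. Vehicle replicate 1 was second only to knockout replicate 2, and the other vehicle libraries were the lowest. Knockout over vehicle came to 0.78 on the log2 scale (SE 0.59, with a 95% interval from -0.57 to 2.14; edgeR adjusted p = 0.793), and limma on log2(FPKM + 0.1) gave 1.19. Csrp3, a LIM-domain protein that links the Z-disc to signalling, had 266, 809 and 234 CPM in knockout and 349, 128 and 125 CPM in vehicle libraries. For Csrp3 knockout over vehicle came to 1.12 on the log2 scale (SE 0.58, with a 95% interval from -0.21 to 2.45; edgeR adjusted p = 0.708). Ankrd2, the ankyrin repeat protein of slow muscle, had 284, 706 and 252 CPM in knockout and 457, 80.9 and 78.6 CPM in vehicle libraries. In both Csrp3 and Ankrd2 the order was the same, with knockout replicate 2 highest, then vehicle replicate 1, then the other knockout libraries, and with vehicle replicates 2 and 3 lowest. For Ankrd2 knockout over vehicle came to 1.01 on the log2 scale (SE 0.73, with a 95% interval from -0.69 to 2.71; edgeR adjusted p = 0.786).

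Markers of slow fibres moved with these 4 genes. The 12 genes of a slow-fibre list that holds none of the members (Myh7, Myh7b, Myl2, Myl3, Tnnt1, Tnni1, Tnnc1, Tpm3, Atp2a2, Casq2, Lmod2 and Sln) all passed the count filter, and their CPM summed to 6143 to 32264 in knockout and 1290 to 10123 in vehicle libraries. The mean log2 CPM of that list, set against its own average, stood at 0.11, 2.37 and 0.69 in knockout replicates 1, 2 and 3, against 0.74, -1.82 and -2.10 in vehicle replicates 1, 2 and 3. All 12 estimates were higher in knockout, with 0 past the adjusted threshold in edgeR or DESeq2 and 3 at an unadjusted p below 0.05. Of the 15 pairs that 6 libraries form, Actn2, Csrp3, Ankrd2 and Myot put 14 in the same order as the slow-fibre list, and Myoz2 and Tcap put 13. In this bulk RNA, more slow fibres and more of these transcripts per fibre cannot be told apart.

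**Figure D2:**
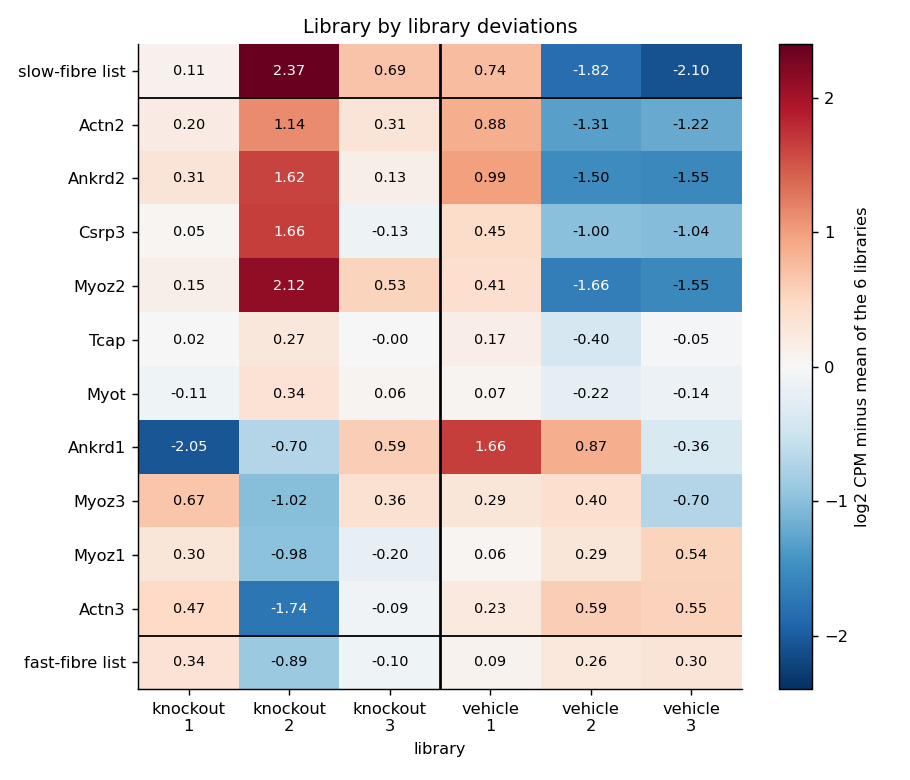
Log2 CPM of each gene minus its own mean over the 6 libraries, with the means of the slow-fibre and fast-fibre lists above and below; columns are knockout replicates 1 to 3 and vehicle replicates 1 to 3, red is above and blue below the mean. Actn2, Ankrd2, Csrp3 and Myoz2 follow the slow-fibre list, from 1.14 to 2.12 in knockout replicate 2, and Ankrd1 has its lowest value, -2.05, in knockout replicate 1.

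With the slow-fibre list mean as a covariate in the edgeR model, the estimates of these genes came close to 0. Myoz2 was then at 0.19 (SE 0.27, 95% interval -0.42 to 0.80), in place of 1.79. The signs of Actn2, Csrp3 and Ankrd2 turned, to -0.29 (SE 0.30), -0.25 (SE 0.32) and -0.34 (SE 0.29), and the edgeR adjusted p of all 10 members was 1. In that fit 0 of all 15583 genes passed the adjusted threshold. An edgeR unadjusted p below 0.05 was reached by 267 of them, against 1159 without the covariate. The covariate was measured in the same libraries, and that model removes any part of a difference that the slow-fibre genes share.

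Actn3, the alpha-actinin of fast glycolytic fibres, varied in the opposite direction between libraries. It had 7721, 1660 and 5228 CPM in knockout and 6496, 8338 and 8114 CPM in vehicle libraries. Only knockout replicates 2 and 3 lay below all vehicle libraries, and replicate 1 lay among them. Knockout over vehicle came to -0.65 on the log2 scale (SE 0.48, with a 95% interval from -1.72 to 0.42; edgeR adjusted p = 0.786). Myoz1, the main myozenin of fast fibres, had 3272, 1347 and 2316 CPM in knockout and 2763, 3254 and 3856 CPM in vehicle libraries, which makes -0.51 on the log2 scale (SE 0.34; edgeR adjusted p = 0.760). As for Actn3, knockout replicates 2 and 3 were the lowest. Actn3 and Myoz1 each put 2 of the 15 library pairs in the order of the slow-fibre list. The 12 genes of a fast-fibre list, such as the myosin Myh4 and parvalbumin, summed to 95485 to 231880 CPM in knockout and 188080 to 217620 CPM in vehicle libraries, with 11 of 12 estimates lower, 0 past the adjusted threshold in edgeR or DESeq2, and 1 lower at an unadjusted p below 0.05. With the slow-fibre covariate Actn3 was at -0.0129 (SE 0.45) and Myoz1 at 0.0114 (SE 0.33).

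Myoz3, which is also known from fast fibres, did not share the pattern of Myoz1. It had 59.3, 18.4 and 47.8 CPM in knockout and 45.6, 49.2 and 23.0 CPM in vehicle libraries. Knockout replicate 2 and vehicle replicate 3 were low and the other 4 libraries were alike. Knockout over vehicle came to 0.0937 on the log2 scale (SE 0.43, with a 95% interval from -0.91 to 1.09; edgeR adjusted p = 0.974), and its sign was not stable. It was -0.25 when knockout replicate 1 was left out. The estimates without knockout replicate 3, at -0.0146, and without vehicle replicate 3, at -0.18, were also below 0.

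Myot and Tcap, structural proteins of the Z-disc in fast and slow fibres alike, varied least. Myot, which binds alpha-actinin and filamin, had 1638, 2233 and 1833 CPM in knockout and 1853, 1509 and 1595 CPM in vehicle libraries, which makes 0.20 on the log2 scale (SE 0.24, 95% interval -0.33 to 0.73). Tcap, which caps the end of titin, had 3170, 3770 and 3121 CPM in knockout and 3518, 2370 and 3033 CPM in vehicle libraries, which makes 0.17 on the log2 scale (SE 0.26, 95% interval -0.40 to 0.75). Both were highest in knockout replicate 2 and lowest in vehicle replicate 2, over a narrow range. The edgeR adjusted p was 0.872 for Myot and 0.903 for Tcap. The highest library exceeded the lowest 1.48-fold for Myot and 1.59-fold for Tcap, beside 13.7-fold for Myoz2 and 13.3-fold for Ankrd1. Of all tested genes 25.1% had a smaller range of log2 CPM than Myot and 34.4% a smaller one than Tcap, against 98.8% for Myoz2, 98.7% for Ankrd1 and 97.3% for Ankrd2.

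**Figure D3:**
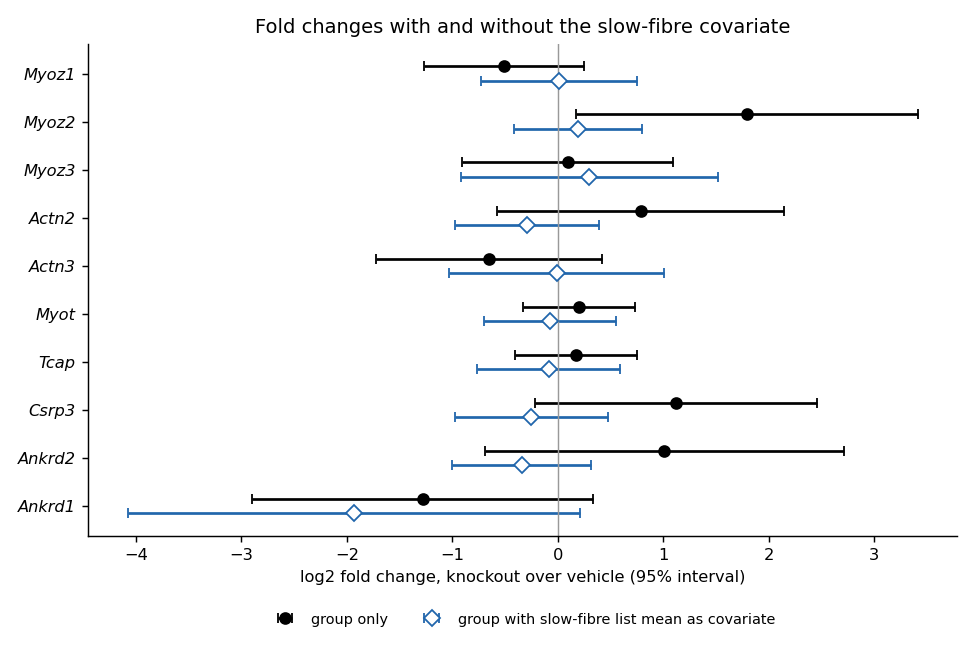
Log2 fold change of knockout over vehicle for each gene with its 95% interval, from edgeR with the group alone (filled circles) and with the mean of the slow-fibre list as a covariate (open diamonds). The estimates of Myoz2, Actn2, Csrp3 and Ankrd2 lie between 0.78 and 1.79 without the covariate and between -0.34 and 0.19 with it, while Ankrd1 is at -1.28 without it and at -1.93 with it.

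Ankrd1, the ankyrin repeat protein known for its induction by load and injury, had a pattern of its own. It had 126, 326 and 870 reads in knockout and 1568, 1024 and 457 reads in vehicle libraries, which is 3.66, 9.43 and 23.2 CPM in knockout and 48.5, 28.0 and 11.9 CPM in vehicle libraries. Knockout replicates 1 and 2 were the lowest of the 6 libraries, vehicle replicates 1 and 2 were the highest, and knockout replicate 3 lay above vehicle replicate 3. Knockout over vehicle came to -1.28 on the log2 scale (SE 0.69, with a 95% interval from -2.90 to 0.34; unadjusted p = 0.104, edgeR adjusted p = 0.722). Its 8 of 15 library pairs in the order of the slow-fibre list were neither the pattern of Myoz2 nor that of Actn3. With the slow-fibre covariate the estimate was -1.93 (SE 0.88, 95% interval -4.08 to 0.21; unadjusted p = 0.0693, edgeR adjusted p = 1).

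Smooth muscle markers were lower in estimate in knockout in 4 of 4 genes, of which edgeR called 0 and DESeq2 called 1. In edgeR 3 of the 4 were lower at an unadjusted p below 0.05, beside 3.42% of all genes. Their CPM summed to 128 to 192 in knockout and 210 to 288 in vehicle libraries. These sums did not overlap between groups. Of the 4 genes, 3 did not overlap on the lower side, beside 6.48% of all genes. Schwann cell markers had 4 of 4 lower estimates, with sums of 51.5 to 87.0 CPM in knockout and 71.7 to 131 CPM in vehicle libraries. Adipocyte markers had 5 of 5 and the macrophage markers 4 of the 4 matched by symbol higher estimates, with sums of 51.9 to 200 CPM and 14.1 to 49.5 CPM in knockout and of 22.1 to 65.2 CPM and 9.31 to 22.6 CPM in vehicle libraries. In edgeR and DESeq2 0 genes of the Schwann cell, adipocyte and macrophage lists passed the adjusted threshold. At an unadjusted p below 0.05 in edgeR there were 5 of 5 adipocyte, 3 of 4 macrophage and 0 of 4 Schwann cell genes, with those of adipocytes and macrophages all higher, beside 4.02% of all genes that were higher. The part of these markers in the values of the Z-disc genes was not tested.

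The relation between paralogs was examined within each library, as the share of 1 gene in the summed FPKM of its family. Actn2 made up 11.7%, 54.2% and 17.5% of Actn2 plus Actn3 in knockout and 20.1%, 4.14% and 4.51% in vehicle libraries. Knockout replicate 2 was the only library in which Actn2 exceeded Actn3. The difference of means was 18.2 percentage points (27.8% ± 23.1 in knockout and 9.59% ± 9.11 in vehicle libraries, ± SD over 3 libraries each; exact permutation p = 0.3). Myoz2 made up 3.80%, 27.5% and 6.76% of the 3 myozenins in knockout and 5.33%, 1.13% and 1.04% in vehicle libraries (exact permutation p = 0.2), a difference of 10.2 percentage points, or of 19.0 when shares of raw counts not divided by length were taken. Without knockout replicate 2 the difference was 4.99 percentage points for Actn2 and 2.78 for Myoz2. Myoz1 held most of the rest, 71.0% to 93.7% in knockout and 92.4% to 98.1% in vehicle libraries.

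The share of Ankrd1 in Ankrd1 plus Ankrd2 was the only 1 of the 3 shares in which the groups did not overlap. It was 0.797%, 0.826% and 5.44% in knockout and 6.21%, 17.8% and 8.63% in vehicle libraries, with means of 2.35% ± 2.67 in knockout and 10.9% ± 6.09 in vehicle libraries (n = 3 each, ± SD). The exact two-sided permutation p was 0.1, the smallest that 3 against 3 libraries can give, and 0.3 after adjustment over the 3 shares. Knockout replicate 3 and vehicle replicate 1 differed by less than 1 percentage point. Of the 6 libraries, knockout replicate 1 had the least Ankrd1 and knockout replicate 2 the most Ankrd2.

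**Figure D4:**
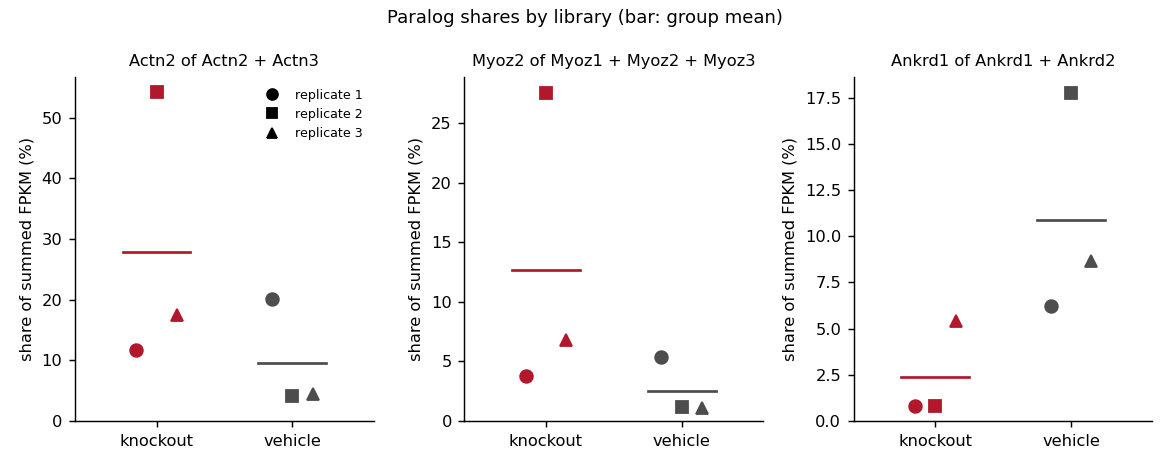
Share of Actn2, Myoz2 and Ankrd1 in the summed FPKM of their families, in percent, in knockout (red, left) and vehicle (grey, right) libraries; points are libraries and bars are group means. Knockout replicate 2 is the highest for Actn2, at 54.2%, and for Myoz2, at 27.5%, and all knockout libraries lie below all vehicle libraries for Ankrd1.

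Long identical stretches were rare between these paralogs. Of the 2964 stretches of 50 bases in the main GENCODE M21 transcript of Actn2, 2 occurred in that of Actn3, the longest common run being 51 bases, and among the myozenins and between Ankrd1 and Ankrd2 there was none. No other gene of that annotation shared exon bases with any of the 10 genes. In mm10 the deposited table places Myoz2 at chr3:123006206-123034990, Myoz1 at chr14:20649102-20656540, Myoz3 at chr18:60576316-60591788, Actn2 at chr13:12269426-12340760 and Actn3 at chr19:4861223-4877909. It places Myot at chr18:44334074-44355724, Csrp3 at chr7:48830398-48848051, Tcap at chr11:98383811-98384953, Ankrd1 at chr19:36111965-36119844 and Ankrd2 at chr19:42036038-42045110.

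Single libraries set the size of most estimates. Without knockout replicate 2 the log2 fold change was 0.94 for Myoz2, 0.31 for Csrp3, 0.38 for Ankrd2, 0.42 for Actn2 and -0.24 for both Actn3 and Myoz1. Without vehicle replicate 1, the vehicle library richest in slow-fibre genes, it was 2.80 for Myoz2, 1.78 for Csrp3, 2.37 for Ankrd2 and 1.87 for Actn2, and the smallest edgeR adjusted p of any member in any fit was 0.165, for Actn2. For Ankrd1 the estimate was -0.72 without vehicle replicate 1 and -2.17 without knockout replicate 3. In all 6 of these fits 9 of the 10 genes kept their sign, the exception being Myoz3, and 0 passed the adjusted threshold.

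**Figure D5:**
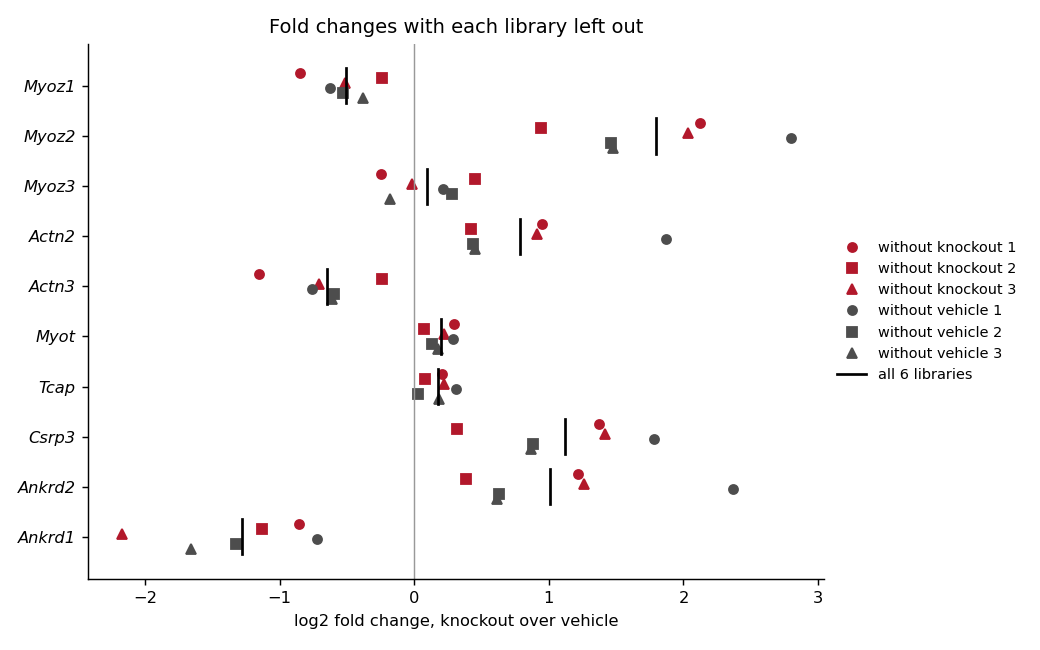
Log2 fold change of knockout over vehicle for each gene with all 6 libraries (black bar) and with each library left out in turn (red for knockout, grey for vehicle, shapes for replicates). Leaving out knockout replicate 2 gives the smallest Myoz2, Actn2, Csrp3 and Ankrd2 estimates, down to 0.31, and leaving out vehicle replicate 1 the largest, up to 2.80.

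The genes whose library pattern was nearest were found for the 3 members of largest fold change, by the root mean square difference of log2 CPM over the 6 libraries after each gene's own mean was subtracted, among 7615 other genes with a mean of at least 10 CPM. For Myoz2 these were Casq2, the calsequestrin of slow and cardiac muscle, at 0.13, Tpm3-rs7 at 0.20 and the LIM protein Fhl2 at 0.24. For Csrp3 they were the fatty acid binding protein Fabp3 at 0.21, the Z-disc associated PDZ-LIM protein Pdlim1 at 0.21 and the pseudogene Fabp3-ps1 at 0.23. Reads of Tpm3-rs7 and Fabp3-ps1 can come from their parent genes. For Ankrd1 no gene came as near: the secreted protease Adamts1 and thrombospondin Thbs1 were at 0.74, as was the matrix protein Cilp. Thbs1 had a log2 fold change of -1.15 (SE 0.48; edgeR adjusted p = 0.664) and Adamts1 of -0.66 (SE 0.32; edgeR adjusted p = 0.689).

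Other Z-disc and I-band proteins gave 15 higher and 20 lower estimates among 35 genes, with a median log2 fold change of -0.0270. Adjusted over all genes, 0 of the 35 passed in edgeR and 0 in DESeq2, and at an unadjusted p below 0.05 there were 2 higher and 2 lower. The 3 of smallest p were Xirp1, Trim63 and Smtnl1. Xirp1, an actin-binding repeat protein of muscle attachment and repair, averaged 720 ± 370 CPM in knockout and 1617 ± 478 CPM in vehicle libraries (n = 3 each, ± SD; log2 fold change -1.17, edgeR adjusted p = 0.628). Trim63, a ubiquitin ligase that binds titin at the M-band, averaged 487 ± 204 CPM in knockout and 1014 ± 435 CPM in vehicle libraries (log2 fold change -1.06, edgeR adjusted p = 0.640). Smtnl1, a smoothelin-like protein, averaged 229 ± 90.9 CPM in knockout and 106 ± 63.2 CPM in vehicle libraries (log2 fold change 1.11, edgeR adjusted p = 0.645). In all 3 the groups overlapped.

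Partners of the titin spring region and of stretch signalling, 7 genes, gave 5 higher and 2 lower estimates, with a median of 0.0440. In edgeR and DESeq2 0 passed the adjusted threshold, and 1 was higher at an unadjusted p below 0.05. Ankrd23, the third ankyrin repeat protein of this family, averaged 1907 ± 299 CPM in knockout and 2430 ± 513 CPM in vehicle libraries (log2 fold change -0.35, SE 0.26; edgeR adjusted p = 0.789). Fhl2 was at 1.57 (SE 0.66) and Fhl1, a LIM protein of slow and fast muscle, at 0.91 (SE 0.51). Both followed the slow-fibre genes in being highest in knockout replicate 2, at 34.9 CPM for Fhl2 and 4550 CPM for Fhl1.

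Calcineurin, its regulators and the NFAT factors, which myozenins restrain by binding the phosphatase, gave 5 higher and 9 lower estimates among 14 genes, with a median of -0.0894. In edgeR and DESeq2 0 passed the adjusted threshold, and 1 was higher and 1 lower at an unadjusted p below 0.05. Rcan2, a calcineurin inhibitor, was at 0.62 (SE 0.25; edgeR adjusted p = 0.645). Nfatc1, the NFAT factor linked to the slow-fibre programme, was at -0.48 (SE 0.21, edgeR adjusted p = 0.669). It had 37.1, 24.1 and 39.3 CPM in knockout and 40.0, 52.8 and 47.2 CPM in vehicle libraries. These groups did not overlap, as in 2 of the 14 genes and 6.48% of all genes on the lower side. The catalytic subunit Ppp3cb was at -0.43 (SE 0.24).

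TEAD and YAP factors and their targets, among which Ankrd1 is usually counted, gave 12 higher and 1 lower estimates among 13 genes, with a median of 0.31. Of all 15583 genes tested, 8246 had a higher estimate. In edgeR and DESeq2 0 of the 13 passed the adjusted threshold, and 1 was higher at an unadjusted p below 0.05. Amotl2, an angiomotin that restrains YAP and is itself a target, had 13.8, 12.7 and 13.3 CPM in knockout and 9.78, 10.1 and 9.07 CPM in vehicle libraries, which makes 0.46 on the log2 scale (SE 0.17; edgeR adjusted p = 0.636). Tead1, a factor that binds the MCAT element, had 202, 193 and 235 CPM in knockout and 160, 185 and 114 CPM in vehicle libraries, which makes 0.45 on the log2 scale (SE 0.21; edgeR adjusted p = 0.680). In both the groups did not overlap, as in 3 of the 13 genes and 5.83% of all genes on the higher side. The receptor kinase Axl was at 0.60 (SE 0.28). The estimate of Ankrd1 lay on the other side of 0 from those of 12 of these 13 genes, but its interval, from -2.90 to 0.34, included 0. The list mixes factors with targets, and some of its estimates were smaller than their SE. Among these were Cyr61 at 0.0597 (SE 0.56) and Ctgf at 0.29 (SE 0.52). The part of these factors in the level of Ankrd1 was not tested.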

How the data were processed

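RNA was prepared with a stranded mRNA kit, per the labels' protocols. The authors deposited a read count and an FPKM value per gene for each of the 6 libraries. The submitters' processing notes name mm10, STAR 2.6.1c, bcl2fastq and, from Subread 1.5.1, featureCounts. Neither annotation release nor strand setting is given in the sources used here. The deposited FPKM equalled the count divided by gene length plus 1 base and by the library total, within a relative tolerance of 1e-06 for 100% of values above 0.

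Groups came from the recorded phenotype. The tests on counts were run with edgeR 4.0.16 in R 4.3.3 (filterByExpr, minimum count 10 and minimum total 15; TMM factors; robust quasi-likelihood test, two-sided; threshold 0.05 after Benjamini-Hochberg adjustment over 15583 genes), a procedure tested on simulated data. CPM use TMM-scaled library sizes, and log2 CPM a prior count of 2. Fold changes are those of edgeR's fitted group means, so they differ from the mean of log values. A count of 3 corresponded to 0.0782 to 0.0928 CPM, far below all 10 genes. With 1 library per mouse, spread between mice and spread from preparation cannot be told apart. Alternatives used DESeq2 1.42.0 and limma 3.58.1.

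The 10 genes and all lists were chosen with earlier results of these data known. Of each list the 3 genes of smallest p are named in the report for Z-disc, stretch, calcineurin and TEAD genes, and marker lists are given by counts and sums. For the 3 members of largest fold change, the 3 genes nearest in library pattern are named. Endothelial, fibro-adipogenic, tendon, satellite cell and red blood cell markers had 2 of 4, 4 of 4, 3 of 4, 2 of 3 and 1 of 3 higher estimates, and the intermediate fast myosin Myh2 was at 1.12 (SE 0.49). For the covariate, the slow-fibre list mean was centred. Of the motifs searched in the promoters, 1 is not reported here.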

Additional observations from a re-analysis of the deposited data

How the results depend on the processing

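In edgeR 0 of all genes and 0 of the 10 members passed with all libraries. For the members the count was 0 in all 10 other settings and in the 6 fits that left out a library. For all genes it was 4 with DESeq2 size factors in edgeR, 109 with the DESeq2 Wald test and 29 without a low-count filter, and 0 to 24 with a library left out (24 without knockout replicate 1, 6 without knockout replicate 2 and 0 in the other 4 fits). The cause of these differences was not tested. With the slow-fibre list mean as a covariate 6 signs turned: Myoz1 was at 0.0114, Actn2 at -0.29, Myot at -0.0737, Csrp3 at -0.25, Ankrd2 at -0.34 and Tcap at -0.0888. In the other 9 settings no member turned sign. With a library left out Myoz3 ran from -0.25 to 0.45 and turned in 3 of 6 fits, and the other 9 members kept their sign. The differences in share kept their sign in all settings, from 4.99 to 26.3 percentage points for Actn2, 2.78 to 19.0 for Myoz2 and -12.5 to -5.07 for Ankrd1. Limma on log2 FPKM, with pseudocounts of 0.1 and 1, gave 1.19 for Actn2 and 1.46 for Ankrd2 under both, above the edgeR values. No paired analysis was possible because replicate numbers were given in accession order and pair nothing. No group had the 4 samples that a search for single outlying libraries needs.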
